A study of Mus musculus with 16 samples.

Results

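Nodal and Lefty signalling was followed at the chromatin of 7 genes: the ligands Nodal and Gdf3, the co-receptor gene Tdgf1 (Cripto), the extracellular inhibitors Lefty1, Lefty2 and Cer1, and the transcription factor Foxh1. These 7 were taken by name from 26180 mouse genes with a curated RefSeq transcript, and each of them has 1 such transcript and 1 start site. For every gene, the peaks of all 6 deposited lists were collected within 2500 bp on each side of the start site (a window of 5001 bp) and over the transcribed span. The lists come from ChIP-sequencing of R1 mouse embryonic stem cells that carry MycER, a form of Myc fused to the estrogen receptor and switched on by 4-hydroxytamoxifen (OHT). Both cultures carry this transgene. LIF-ESCs were grown in 100 units/ml of the cytokine LIF, and Myc-ESCs in 50 nM OHT without LIF. The labels name 16 libraries, 4 of them input DNA and 2 for each culture and antibody. The study worked with MycER lines that are single clones, and the labels do not say which clone was used. The clone that the study was given carries a mutant form of Myc. For the clone that it made itself, no mutation is stated.

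Nodal is a secreted ligand of the TGF-beta family that signals through activin receptors with Cripto as co-receptor, so that phosphorylated Smad2 and Smad3 join Smad4 and bind DNA with partners such as Foxh1. Nodal and both Lefty genes are themselves targets of the pathway, and the Lefty proteins block the ligand and its co-receptor outside the cell. In mouse embryonic stem cells the pathway is active through ligands that the cells make, and in the embryo it sets up mesendoderm and the left-right axis. H3K4me3 is a histone mark found at active and poised promoters, H3K27me3 is the mark laid down by the Polycomb repressive complex PRC2, and Suz12 is a core subunit of PRC2.

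Foxh1 is known to act on Nodal and Lefty2 through paired sites in an enhancer, so the closest pairs of its core motif were read from the genome around each start site. The core was searched as TGTNNATT on both strands in 10001 bp around the start site. Both matches of each pair stand in capitals, with 10 flanking bases, in GRCm38. At Nodal the pair lies at chr10:61419204-61419316, plus strand, in intron 1, and at Lefty2 it lies at chr1:180888883-180888993, plus strand, upstream of the gene. These windows were chosen for display after the matches were seen.
Nodal pair: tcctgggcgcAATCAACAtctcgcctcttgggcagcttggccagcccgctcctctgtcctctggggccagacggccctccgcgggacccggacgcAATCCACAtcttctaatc
Lefty2 pair: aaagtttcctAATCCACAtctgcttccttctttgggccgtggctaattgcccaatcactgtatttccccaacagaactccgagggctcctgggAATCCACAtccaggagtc
The Nodal matches start 85 bp apart and the window spans positions 1232 to 1344 from the start site, and the Lefty2 matches start 83 bp apart at positions -4225 to -4115. The printed pairs were taken only from matches inside H3K4me3 peaks of both cultures, so that position was set by the choice. Both pairs lay outside all H3K27me3 and Suz12 peaks. Such pairs are common by sequence alone: 45.3% of 26127 start-site regions of this length held core matches starting within 100 bp of each other, as did 4 of the 7 genes (Nodal, Lefty2, Cer1 and Tdgf1). Closer pairs than those printed here were found at Tdgf1, 26 bp apart, and at Cer1, 62 bp apart. The Cer1 pair, at -944 and -882 from the start site, lay in no H3K4me3 peak. Single core matches were found in 99.3% of the regions, with a median of 7 per region, and the 7 genes held between 4 and 8. A match describes letters and is not a binding site.

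The H3K4me3 list of LIF-ESCs had 32469 peaks with a median length of 2316 bp, and that of Myc-ESCs had 30345 with a median of 2623 bp. In the same order there were 3120 and 16717 peaks for H3K27me3, and 11305 and 13907 for Suz12. Each peak carries a score, which follows the p-value of the peak caller on a log scale, starts at 50 and repeats the value 3100 for many of the strongest peaks. No values per library are in the lists and the depth is unknown, so replicate error could not be estimated for any difference between cultures and no test was run. All 6 embryonic stem cell genes of the marker list (Pou5f1, Sox2, Nanog, Esrrb, Zfp42 and Klf4) had H3K4me3 in both cultures. So did all 4 endoderm genes, and of the 4 fibroblast genes 3 had it in LIF-ESCs and all of them in Myc-ESCs. Suz12 was listed at 1 of the 6 stem cell genes in LIF-ESCs (Esrrb) and 2 in Myc-ESCs (Esrrb and Klf4), at 1 and 3 of the 4 fibroblast genes, and at all 4 endoderm genes in both. H3K27me3 was listed at 0 and 1 stem cell genes, 0 and 1 fibroblast genes, and 3 and 4 endoderm genes.

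H3K4me3 peaks were present at 6 of the 7 start sites in LIF-ESCs and at the same 6 in Myc-ESCs, where 62.2% and 63.3% of all genes had one. Cer1 was the exception. H3K27me3 was listed at 0 of the 7 genes in both cultures, while the LIF-ESC list marked 3.82% of all genes and the Myc-ESC list 10.7%. Suz12 was listed at 0 of 7 in LIF-ESCs (12.1% of all genes) and at 1 of 7 in Myc-ESCs (14.6% of all genes), which was Lefty1. No member had H3K4me3 in a single culture, where 1.21% of all genes had it in LIF-ESCs alone and 2.35% in Myc-ESCs alone, and none had H3K27me3 in a single culture (0.733% and 7.65% of all genes). No peak of any kind was listed at the start site of 1 of the 7, Cer1, and of 34.7% of all genes. The other 5, Nodal, Gdf3, Lefty2, Tdgf1 and Foxh1, thus carried H3K4me3 in both cultures and no Polycomb peak in any list, a state shared by 45.2% of all genes. Over the gene bodies the counts were the same as at the start sites: 6 of 7 for H3K4me3 in each culture (64.2% and 65.3% of all genes), 0 of 7 for H3K27me3 (3.79% and 10.7%), and 0 and then 1 of 7 for Suz12 (12% and 14.6%). With so few genes, these counts describe the 7 genes and are not set apart from the background by a test.

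**Figure D1:**
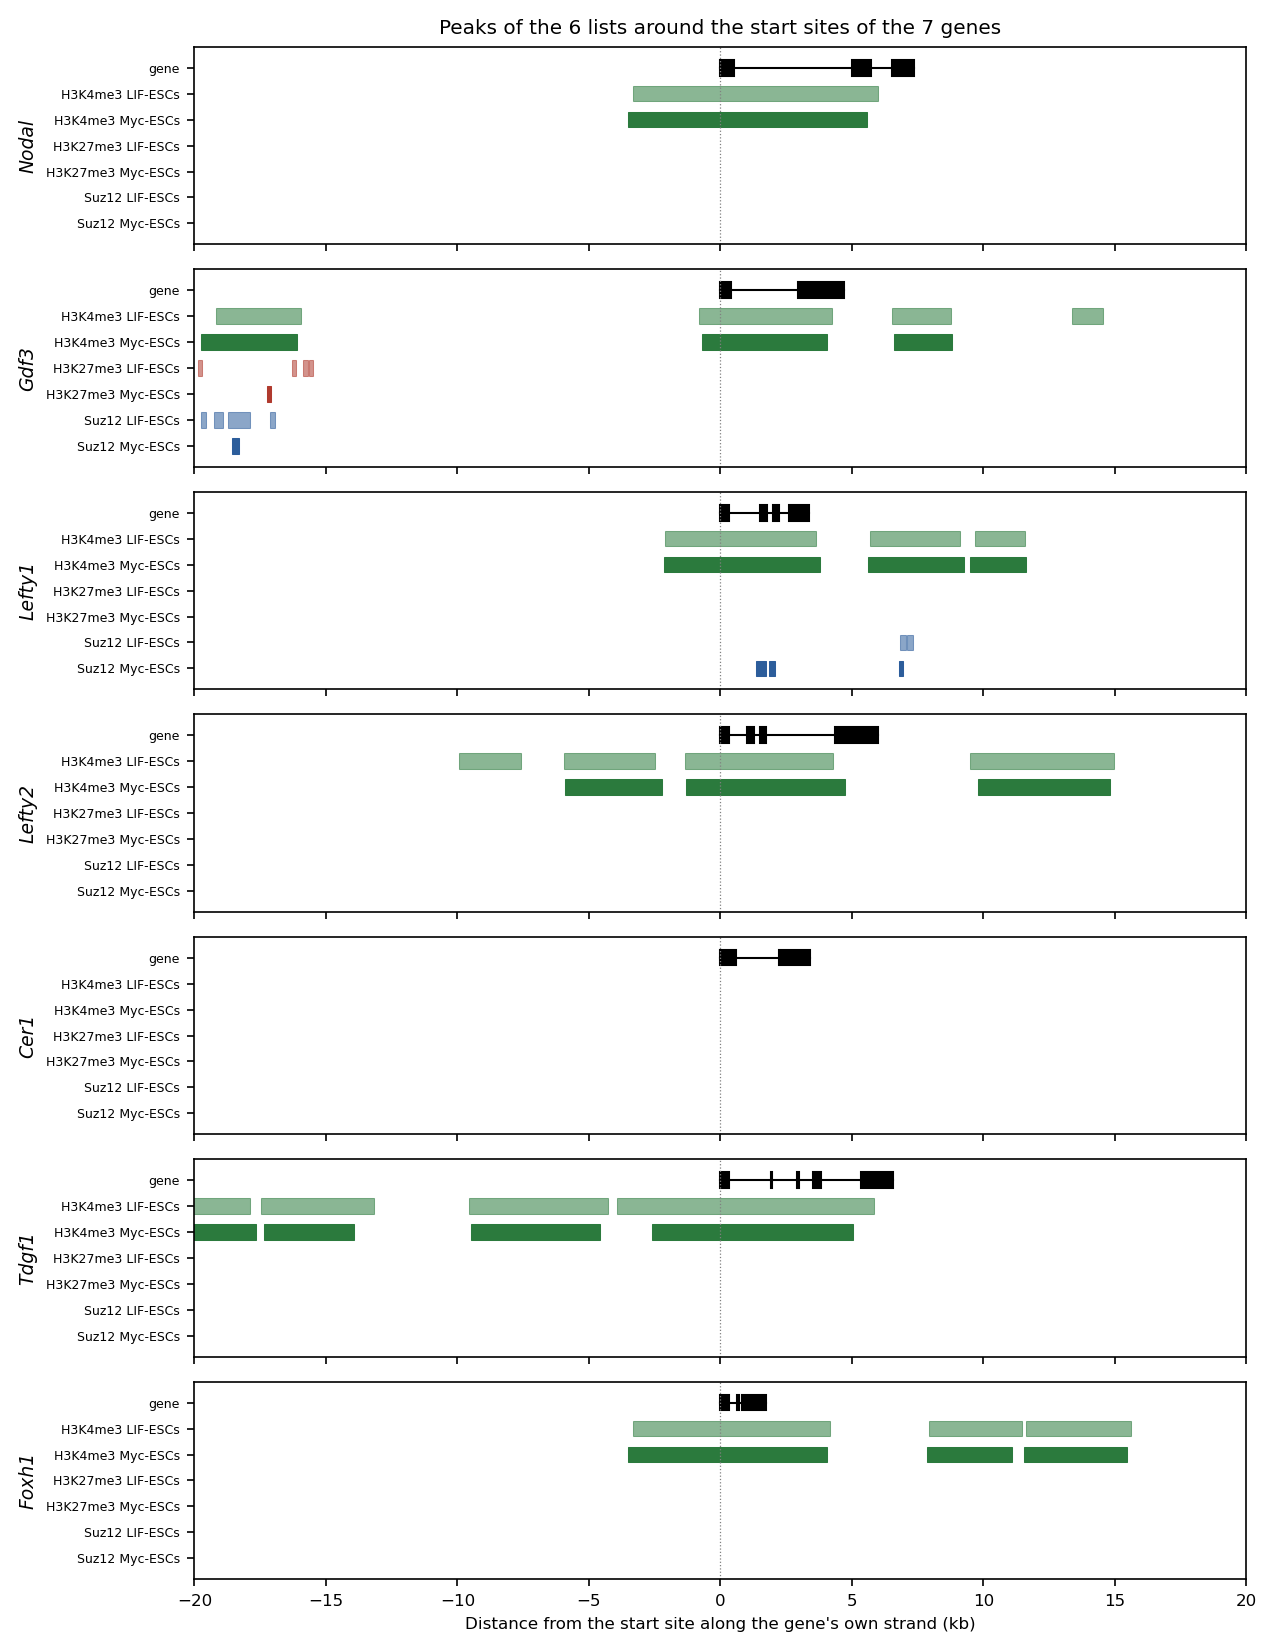
Peaks of the 6 lists within 20 kb of the start site of each of the 7 genes, with distance in kb along the gene's own strand, exons as black boxes, LIF-ESC peaks in pale and Myc-ESC peaks in full colour. A green H3K4me3 bar crosses the start site of 6 genes in both cultures, Cer1 is empty, and the only Polycomb peaks inside any of the 7 genes are the Suz12 peaks of Lefty1 in Myc-ESCs.

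Nodal (gene 18119, chr10:61417972-61425338, plus strand, 3 exons) had the longest H3K4me3 peak of the set in Myc-ESCs and the second longest in LIF-ESCs. In LIF-ESCs the peak ran from 61414649 to 61423971, 9323 bp, from position -3323 to position 5999 relative to the start site. The Myc-ESC peak was 9096 bp long, from 61414466 to 61423561. It therefore began before exon 1, ran through intron 1 with the Foxh1 core pair printed above, and ended inside exon 2 in Myc-ESCs, while in LIF-ESCs it ended in intron 2. Both had a score of 3100. Its length was above the longest start-site peak of 96.1% of marked genes in the LIF-ESC list, and of 98.3% in the Myc-ESC list. The nearest Suz12 peak lay 207688 bp away in LIF-ESCs and, in Myc-ESCs, 207168 bp, and the nearest H3K27me3 peak 588327 and 362158 bp away. For comparison, the median distance over all genes was 164260 and 128134 bp for Suz12, and 513947 and 149560 bp for H3K27me3.

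Gdf3 (gene 14562, chr6:122605403-122610087, minus strand, 2 exons) encodes a related ligand that also uses Cripto. Its peak had the shortest length of the set in both cultures. It was 5038 bp long in the LIF-ESC list (122605857 to 122610894) and 4747 bp in the Myc-ESC list (122606046 to 122610792), both with a score of 3100. Even so, 81.2% and 80% of marked genes had shorter peaks. Gdf3 was the member with the closest H3K27me3 peak. This peak belongs to the region of Dppa3 (Stella), a germline and pluripotency gene whose start site lies upstream of Gdf3: H3K27me3 peaks came to within 15501 bp of the Gdf3 start site in LIF-ESCs and within 17098 bp in Myc-ESCs, and Suz12 peaks to within 16952 and 18294 bp. The Dppa3 window held 3 H3K27me3 peaks over 496 bases in LIF-ESCs and 1 peak over 150 bases in Myc-ESCs. For Suz12 it held 2 peaks over 1036 bases and 1 peak over 283 bases. The Dppa3 values were thus lower in Myc-ESCs for both, while H3K27me3 as a whole had more peaks in that list. The highest H3K27me3 score there was 74.2 in LIF-ESCs and 53.3 in Myc-ESCs, where the scores of a list start at 50. For Suz12 the highest score was 422 in LIF-ESCs and 108 in Myc-ESCs. The H3K27me3 difference at Dppa3 thus rests on peaks near the caller's threshold.

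Tdgf1 (gene 21667, chr9:110939608-110946158, minus strand, 6 exons) encodes Cripto, the membrane-anchored co-receptor for Nodal and Gdf3. In LIF-ESCs its H3K4me3 peak was the longest of the set at 9775 bp, from 110940316 to 110950090. In Myc-ESCs it was 7646 bp long, from 110941115 to 110948760. Both ends were further in: relative to the start site the upstream end was at -3932 in LIF-ESCs and at -2602 in Myc-ESCs, and the downstream end at 5842 and 5043. The difference of -2129 bp, or -0.35 on the log2 scale, was the largest of the set, and 8.56% of 15958 genes with H3K4me3 in both cultures had a lower ratio. The score was 3100 in both lists. The Tdgf1 peak was longer than the longest start-site peak of 96.7% of marked genes in LIF-ESCs and of 96.4% in Myc-ESCs. Upstream, at Lrrc2, covered H3K4me3 bases in the start-site window numbered 4643 in the LIF-ESC list, in which the Tdgf1 peak reaches into that window, and 3295 in the Myc-ESC list. A core pair in the Tdgf1 promoter is among the letters printed for promoters further on.

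Lefty2 (gene 320202, chr1:180893108-180899107, plus strand, 4 exons) encodes a secreted antagonist of Nodal. Its start-site peak was 5640 bp long in LIF-ESCs (180891757 to 180897396, score 3100) and, in Myc-ESCs, 6068 bp (180891784 to 180897851, score 3135). A further H3K4me3 peak lay upstream of it in both cultures, 3461 bp in LIF-ESCs (180887170 to 180890630, score 567) and 3703 bp in Myc-ESCs (180887192 to 180890894, score 478). This upstream peak holds the Lefty2 core pair printed above. Relative to the start site it ran from -5938 to -2478 in LIF-ESCs and from -5916 to -2214 in Myc-ESCs, and so reached the window by its edge. Still further upstream, a peak of 2376 bp with a score of 142 was listed in LIF-ESCs from -9948 to -7573, and the Myc-ESC list had none at that place.

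Foxh1 (gene 14106, chr15:76668224-76669948, minus strand, 3 exons) encodes the forkhead factor that brings Smad2 and Smad3 to Nodal targets. The gene spans 1725 bp and lay wholly inside a peak of 7505 bp in LIF-ESCs (76665772 to 76673276) and 7537 bp in Myc-ESCs (76665910 to 76673446), both with a score of 3100. The same peak covers the start site of Ppp1r16a, so its length cannot be assigned to Foxh1 alone. Longest peaks were shorter at 93.2% of marked genes for LIF-ESCs and at 96.2% for Myc-ESCs.

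Cer1 (gene 12622, chr4:82881751-82885151, minus strand, 2 exons) encodes Cerberus-like, a secreted inhibitor of Nodal and BMP ligands that is known from the anterior visceral endoderm. No peak of any list overlapped its window or body, a state found at 30.8% of all genes. The closest H3K4me3 peaks, 24827 bp away in LIF-ESCs and, in Myc-ESCs, 24208 bp, lay at Zdhhc21. Suz12 came no closer than 345766 bp in LIF-ESCs and, in Myc-ESCs, 345561 bp, and H3K27me3 no closer than 345866 and 190067 bp. A missing peak means only that none passed the caller's threshold at a depth that is not known.

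To set the unmarked gene beside genes with long H3K4me3 peaks, the 250 bases before the start site are printed for Nodal, Cer1 and Tdgf1, the 3 of the 7 genes matched in the RefSeq promoter table (GRCm38.p6), each on the strand of its gene, with CpG dinucleotides in capitals. They lie at chr10:61417722-61417971 (plus strand), chr4:82885152-82885401 (minus strand) and chr9:110946159-110946408 (minus strand).
Nodal promoter: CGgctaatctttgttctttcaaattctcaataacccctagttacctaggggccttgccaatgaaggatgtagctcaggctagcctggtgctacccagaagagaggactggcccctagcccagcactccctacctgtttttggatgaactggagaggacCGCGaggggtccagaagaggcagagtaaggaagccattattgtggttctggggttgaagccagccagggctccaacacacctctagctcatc
Cer1 promoter: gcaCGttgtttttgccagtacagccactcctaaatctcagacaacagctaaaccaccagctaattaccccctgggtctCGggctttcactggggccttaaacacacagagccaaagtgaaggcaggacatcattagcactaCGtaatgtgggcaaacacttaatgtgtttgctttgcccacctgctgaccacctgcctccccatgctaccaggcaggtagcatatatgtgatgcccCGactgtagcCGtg
Tdgf1 promoter: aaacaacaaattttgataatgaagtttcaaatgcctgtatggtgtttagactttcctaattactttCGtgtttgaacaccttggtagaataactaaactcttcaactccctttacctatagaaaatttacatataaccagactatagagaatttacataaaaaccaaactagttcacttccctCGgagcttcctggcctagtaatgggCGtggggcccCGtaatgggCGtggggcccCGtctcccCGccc
These stretches hold 3, 5 and 7 CpG for Nodal, Cer1 and Tdgf1, and the median over 32851 promoters was 6. At this short range the Nodal promoter had fewer CpG than that of Cer1. The Tdgf1 stretch holds 2 matches to the Foxh1 core, which begin at positions -127 and -101 from the start site, 26 bp apart, and 12.2% of the promoters in the table (300 bases each) held at least 1 match. Over the whole window of 5001 bp the order was different. Nodal had 28.0 CpG per kb, Foxh1 25.2, Tdgf1 25.0, Lefty2 21.8, Lefty1 18.4, Gdf3 15.6 and Cer1 14.2. The medians were 25.0 for the 16022 genes with a LIF-ESC H3K4me3 peak and 8.60 for the 10105 without. Cer1 was thus the lowest of the 7, with 37.5% of all genes below it, and Gdf3, which carried H3K4me3, was close to it at 41.5%.

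The H3K4me3 peak at the start site differed in length by at most 428 bp between the cultures at 5 of the 6 marked genes. Myc-ESC minus LIF-ESC lengths were -227 bp for Nodal, -291 bp for Gdf3, 194 bp for Lefty1, 428 bp for Lefty2 and 32 bp for Foxh1, beside the -2129 bp of Tdgf1. On the log2 scale these 5 ratios lay between -0.09 (Gdf3) and 0.11 (Lefty2). Of the 6 marked genes, 3 had the longer peak in Myc-ESCs and 3 the shorter, whereas 61.9% of the 15958 genes had the longer peak in Myc-ESCs. The median log2 length ratio was -0.015 over the 6 genes and 0.06 over the 15958 genes with H3K4me3 in both cultures. Over the latter, the 10th and 90th percentiles were -0.30 and 0.45. Thus 5 of the 6 ratios lay inside that range and Tdgf1 lay below it. The median peak length over the 6 genes was 6609.5 bp for LIF-ESCs and 6802.5 bp for Myc-ESCs, against 3400 and 3602.5 bp over the 15958 genes.

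**Figure D2:**
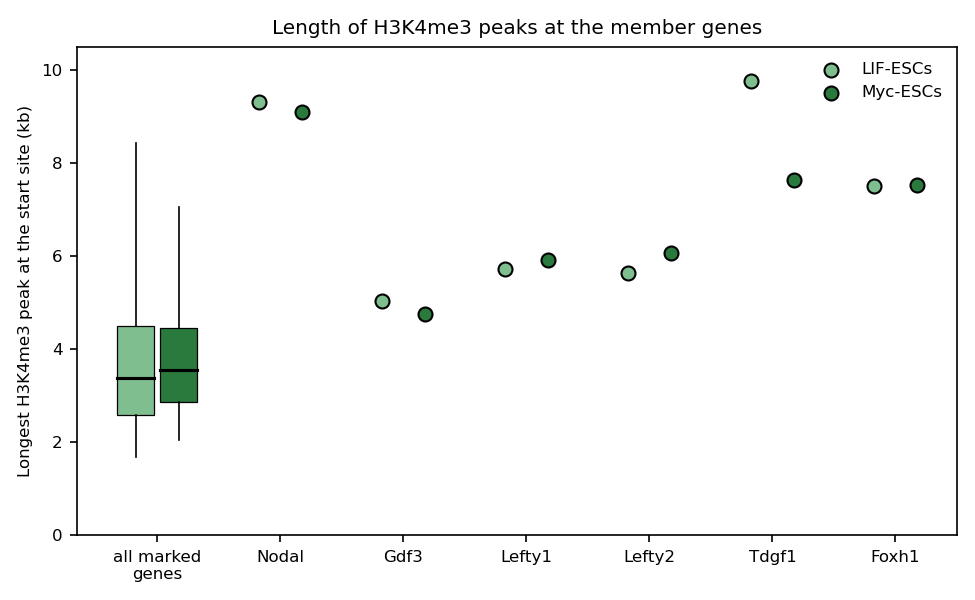
Length in kb of the longest H3K4me3 peak at the start site of the 6 marked genes (points, 1 list per culture), beside all marked genes (box from the 25th to the 75th percentile, line at the median, whiskers at the 5th and 95th percentiles). All 12 points lie above the boxes, from 4747 bp (Gdf3, Myc-ESCs) to 9775 bp (Tdgf1, LIF-ESCs).

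Lefty1 (gene 13590, chr1:180935022-180938401, plus strand, 4 exons) encodes the second Lefty antagonist and was the 1 gene of the set with a Polycomb peak. H3K4me3 covered the whole gene in both cultures, in a peak of 5714 bp in LIF-ESCs (180932928 to 180938641) and 5908 bp in Myc-ESCs (180932893 to 180938800). Its scores of 1356 and 1975 were the lowest in each list when each of the 6 genes was taken by its highest-scoring start-site peak. Suz12 had no peak over the gene in LIF-ESCs. In Myc-ESCs it had 3, which together covered 633 bases and lay within the H3K4me3 peak.

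The first Suz12 peak (chr1:180936377-180936557, 181 bp, score 58.8) spans the end of intron 1 and the start of the coding part of exon 2, 1355 to 1535 bp after the start site. The second (chr1:180936569-180936761, 193 bp, score 55.3) lies in the coding part of exon 2. The third (259 bp, score 96.8) crosses from intron 2 into the coding part of exon 3. All 3 scores are below 100, as are 52.2% of the Suz12 peaks in Myc-ESCs and 54.7% in LIF-ESCs, and the longest of the 3 was longer than the longest peak of 19.5% of Suz12-marked genes. As background, 3.81% of all genes had a Suz12 peak at the start site in the Myc-ESC list and none in the LIF-ESC list. The call is lost with windows of 1000 bp on each side of the start site and with a score of at least 100. No H3K27me3 peak lay within 414813 bp of the Lefty1 start site in Myc-ESCs or within 452118 bp in LIF-ESCs.

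The Lefty genes are near-copies whose start sites lie 41914 bp apart on the same strand, and this bears on where reads can be placed. Their coding sequences have 1107 bases each, of which 1017 (91.9%) are identical. Within the Lefty1 gene, 9 stretches of at least 50 bp, the longest 161 bp, are found without a mismatch at Lefty2. They make up 772 bases, or 22.8% of the gene. Exon 1 holds none, while they cover 78.9% of exon 2, 77.6% of exon 3 and 29.1% of exon 4. Of the Suz12 peaks, 43 of 181 bases (23.8%), 174 of 193 (90.2%) and 191 of 259 (73.7%) lie in these stretches. With stretches of at least 100 bp the shares of the 3 peaks were 0%, 64.2% and 51.7%. A read that falls wholly inside such a stretch matches both genes equally well, and only reads with a single best location were kept by the authors. The read length is not given in the sources used here, and the part of these stretches in the Lefty1 peaks was not tested. At Lefty2 itself no Suz12 peak was listed in either culture. Its nearest one in Myc-ESCs, 43269 bp away, was the first of the Lefty1 peaks, and in LIF-ESCs it lay 46483 bp upstream.

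**Figure D3:**
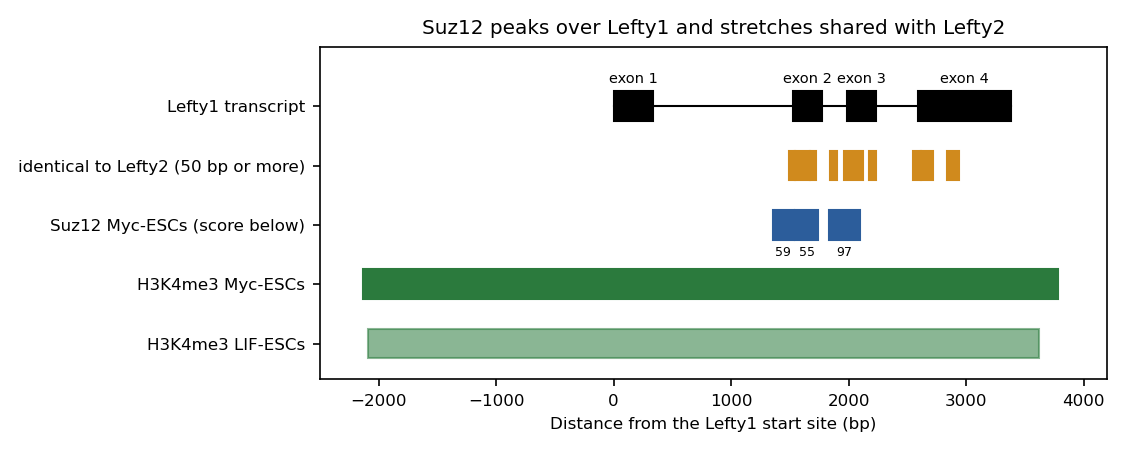
Lefty1 with its exons, the stretches of at least 50 bp identical to Lefty2 (orange), the 3 Suz12 peaks of Myc-ESCs with their scores rounded to whole numbers, and the H3K4me3 peaks of both cultures, against distance from the start site in bp. The Suz12 peaks begin 1355 bp after the start site and lie partly over shared stretches, and inside H3K4me3 in both cultures.

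Suz12 was also listed just downstream of Lefty1, at the start site of Tmem63a, in both cultures. There it had 2 peaks over 423 bases in LIF-ESCs, the closer of them 6817 bp from the Lefty1 start site, and 1 peak over 171 bases in Myc-ESCs. Their scores were 51.1 and 58.9 in LIF-ESCs and 51.8 in Myc-ESCs, near the caller's threshold. Across the genome, the 2 genes with start-site coverage in the 6 lists most like that of Lefty1 were Foxp4, a forkhead factor, and Egr1, an immediate early factor. Likeness was the Euclidean distance over the 6 values of log2(covered bases + 100), which was 0.0964 for Foxp4 and 0.114 for Egr1. Foxp4 had 4519 covered H3K4me3 bases for LIF-ESCs and 4694 for Myc-ESCs, with 588 Suz12 bases in Myc-ESCs only. Egr1 had 4576 and 4752, with 690 Suz12 bases in Myc-ESCs only. For Lefty1 the values were 4595, 4630 and 633.

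The other genes of the pathway were read from a list of 24, arranged by role. The LIF-ESC list had H3K4me3 at 22 of them (62.2% of all genes) and the Myc-ESC list at 23 (63.3%). At the start site, Fstl3, a follistatin-like inhibitor, had it in Myc-ESCs only (2.35% of all genes), and Gsc, a homeobox target, in neither. Over the Fstl3 gene body, however, H3K4me3 peaks covered 2336 bases in LIF-ESCs and 3458 in Myc-ESCs. H3K27me3 was at 0 of 24 in the LIF-ESC list (3.82% of all genes) and at 5 of 24 in the Myc-ESC list (10.7%), where 7.65% of all genes had it in Myc-ESCs only. Suz12 was at 9 of 24 in the LIF-ESC list (12.1% of all genes) and 12 of 24 in the Myc-ESC list (14.6%), with 4 in Myc-ESCs only (3.81%) and 1, Skil, in LIF-ESCs only (1.28%). With a score of at least 100 the count in Myc-ESCs only was again 4, but of these only Inhbb was among the 4 named by the full lists (Inhbb, Pcsk6, Smad3 and Ski), and Inhba, Acvr2a and Furin took the other places. In all, 13 of the 24 had a Polycomb peak in some list, against 1 of the 7 members and 17.5% of all genes, and 10 of the 24 had H3K4me3 in both cultures with no Polycomb peak (45.2% of all genes). The H3K27me3 counts stand beside a Myc-ESC list with more peaks than the LIF-ESC list, and their dependence on depth was not tested. With a score of at least 100, or with the Myc-ESC list limited to as many peaks as the LIF-ESC list, the count in Myc-ESCs was 3. None of the 7 members had H3K27me3 in either list.

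Among ligands and receptors, Inhbb, which encodes the subunit of activin B, had no Suz12 peak in LIF-ESCs. In Myc-ESCs it had 5 over 3732 bases of the window, the strongest with a score of 2515, and an H3K27me3 peak that reached 58 bases into the window. Its H3K4me3 peak was 9585 bp long in LIF-ESCs and, in Myc-ESCs, 4631 bp, a log2 ratio of -1.05 with 1.35% of genes lower. Acvr1c, the receptor Alk7, had 3 H3K27me3 peaks over 651 bases in Myc-ESCs only, and its Suz12 peaks covered 977 bases in the LIF-ESC list and 2018 in the Myc-ESC list. Of the enzymes that cleave the Nodal precursor, Furin had 2 H3K27me3 peaks over 271 bases in Myc-ESCs only and Pcsk6 (Pace4) 1 Suz12 peak over 213 bases in Myc-ESCs only. The Pcsk6 peak had a score of 65.8, in the range of the Lefty1 peaks.

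Fst, the activin-binding inhibitor follistatin, had 2 H3K27me3 peaks over 638 bases in Myc-ESCs only, with 3042 Suz12 bases in LIF-ESCs and 2740 for Myc-ESCs. The target Eomes, a T-box factor of mesendoderm, had 4 H3K27me3 peaks over 616 bases in Myc-ESCs only. Its Suz12 peaks covered 4074 bases in the LIF-ESC list and 4757 in the Myc-ESC list. Ski, a nuclear corepressor of Smads, had 1 Suz12 peak over 167 bases in Myc-ESCs only with a score of 66.2. Its relative Skil had 1 over 168 bases in LIF-ESCs only, with a score of 60.8. The strongest H3K27me3 scores were 185 for Fst, 122 for Eomes, 115 for Acvr1c and 67.7 for Furin. Of all H3K27me3 peaks, 89.1% in the LIF-ESC list and 79.8% in the Myc-ESC list scored below 100. A missing LIF-ESC peak at these genes means only that none passed the caller's threshold.

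**Figure D4:**
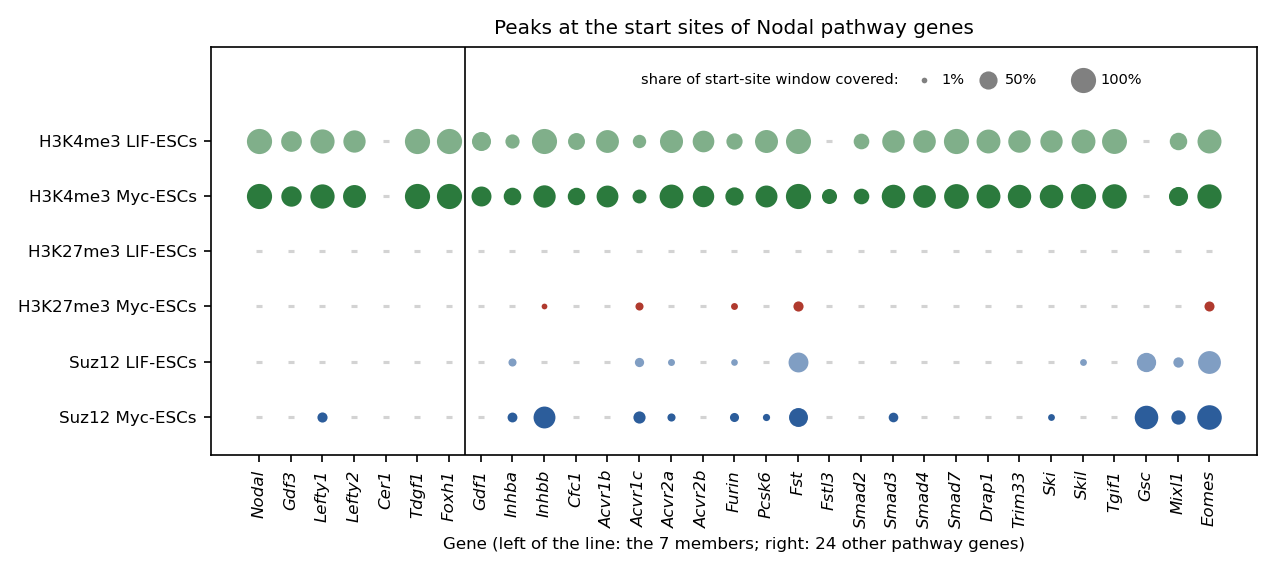
Share of the start-site window covered by peaks of each list (dot area, dashes for no peak) for the 7 members, left of the line, and 24 other genes of the pathway. Members have large H3K4me3 dots except Cer1 and a single Suz12 dot at Lefty1, while 13 of the 24 others have a Suz12 or H3K27me3 dot in some list.

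Some other genes of the pathway had peak lengths that differed more between the lists than those of any member. Smad7, the inhibitory Smad, had the longest LIF-ESC peak of the list, 18860 bp, and 9591 bp in Myc-ESCs (log2 ratio -0.98). Skil, a corepressor that is itself a target, went from 4503 to 11074 bp (1.30) and Furin from 1665 to 3858 bp (1.21). Both had 2 start-site peaks in the LIF-ESC list and 1 in the Myc-ESC list, so these ratios set the longer of 2 peaks beside a single peak. Covered bases in the start-site window were 2980 and 3858 for Furin. For Skil they were 4487 and 5001, the latter being the whole window. Over the Skil gene body, covered bases were 4260 in LIF-ESCs and 10050 in Myc-ESCs. Smad2, Smad4 and Drap1, a Foxh1 corepressor, had ratios within 0.02 of 0. Among the members, Lefty1, with Suz12 in Myc-ESCs, had a ratio of 0.05. The median was 0.06 over all genes with H3K4me3 in both cultures.

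**Figure D5:**
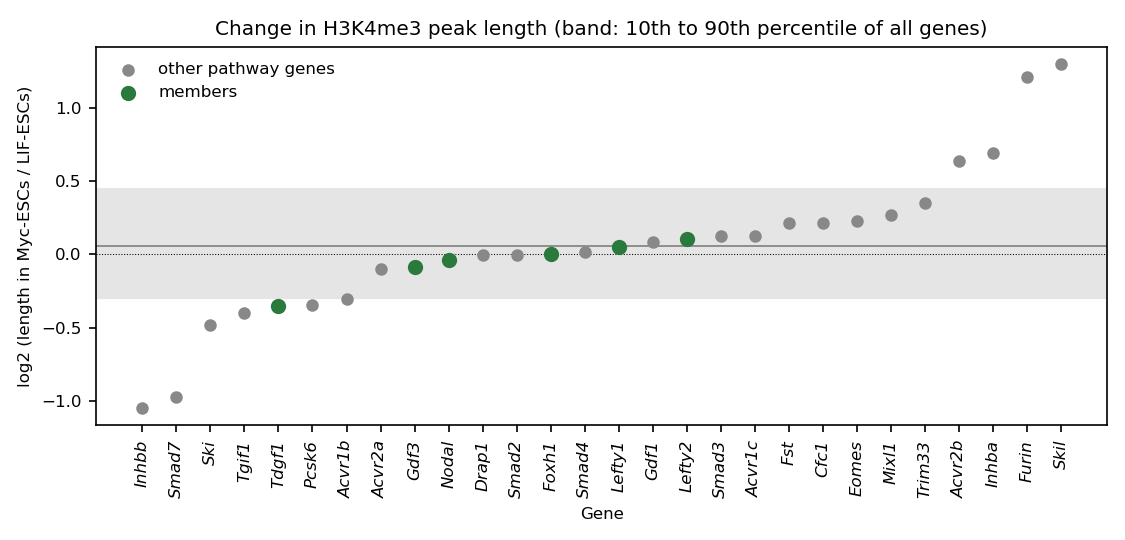
Log2 ratio of the longest start-site H3K4me3 peak, Myc-ESCs over LIF-ESCs, for the 6 marked members (green) and 22 other pathway genes (grey), ordered by value, with the median (line) and the 10th to 90th percentile (band) of 15958 genes. Members lie between -0.35 (Tdgf1) and 0.11 (Lefty2), within a list that runs from -1.05 (Inhbb) to 1.30 (Skil).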

How the data were processed

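ChIP-seq libraries for H3K4me3, H3K27me3 and Suz12 were made from LIF-ESCs and Myc-ESCs, with 2 libraries per culture and antibody and 4 inputs per the labels. The authors aligned reads to GRCm38 with Bowtie2 (2.2.3 in the submitters' processing notes), kept reads with a unique best match, and called peaks over background with MACS (1.4.2). The authors deposited 1 list per culture and antibody, with positions and a score per peak that follows the p-value on a log scale and grows with depth and enrichment. The sources used here do not state whether libraries were pooled. Read counts are not in the lists, so depth per sample is unknown.

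Peaks were intersected (at least 1 bp) with windows of 2500 bp on each side of the start sites of 45756 curated RefSeq transcripts of 26180 genes on 21 chromosomes, and with gene bodies, using Python 3.11.15 and numpy 2.4.6. Figures used matplotlib 3.10.9. The code was tested on simulated data. Coordinates count from 1. The share of all genes called in the same list serves as background. With 1 list per group no test, interval or p-value was possible. Sequence features were counted in the same genome, motifs on both strands.

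The members, the pathway list and the marker lists were chosen with earlier results of these data known. The text names all members, pathway genes with a Polycomb mark in 1 culture only (at most 8, highest deciding peak first), and the 2 genes most like each member with a Polycomb peak. Other pathway genes named for a count or a peak length (Fstl3, Gsc, Inhba, Acvr2a, Smad2, Smad3, Smad4, Smad7 and Drap1) and neighbouring genes were picked after their values were seen. Alternatives were windows of 1000 and 5000 bp, a score of at least 100, lists of equal length, an overlap of at least 100 bp, the most upstream start site, and bodies with 5000 bp upstream. Start sites from GENCODE M21 were an alternative chosen after seeing the data. Input signal and gene expression were not analysed here, and some genes and sequences are not reported here.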

Additional observations from a re-analysis of the deposited data

How the results depend on the processing

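Of 210 values recomputed under the alternatives, 197 stayed within 1.5 times the reported count or within 0.1 of the reported log2 length ratio. Many of them could not move, so this total is no measure of robustness. A count of 0 in a list cannot rise with a stricter score, overlap or window. Each member has 1 start site, so the most upstream one is the same. Lists of equal length leave the shorter list of each antibody whole. The length ratios of the members rested on the same peaks in every setting. The Suz12 count among the 7 genes in Myc-ESCs, and in Myc-ESCs only, was 0 in place of 1 with windows of 1000 bp, since the Lefty1 peaks lie further from the start site, and 0 with a score of at least 100, which also gave 0 over the gene bodies, since the 3 peaks score lower. The H3K4me3 and H3K27me3 counts of the 7 genes moved under none of the alternatives run. Among the 24 other pathway genes, Suz12 in LIF-ESCs fell from 9 to 5 with a score of at least 100. H3K27me3 in Myc-ESCs, and in Myc-ESCs only, fell from 5 to 3 with a score of at least 100 and with lists of equal length. H3K4me3 in Myc-ESCs only was 0 with windows of 5000 bp, where Fstl3 had a peak in both cultures. A count can hold while its genes change: Suz12 in Myc-ESCs only stayed at 4 with a score of at least 100, but the calls of Pcsk6, Smad3 and Ski were lost and Inhba, Acvr2a and Furin entered. Suz12 in LIF-ESCs only was 0 with windows of 1000 bp and with a score of at least 100. GENCODE start sites, an alternative chosen after seeing the data, moved none of these counts by over 1.5 times. Beyond what the settings themselves fix, the cause was not tested. No paired analysis was possible because each culture and antibody has 1 list with no values per library, and for the same reason no replicate could be left out. The depth is unknown for all 6 lists and limits what an absent peak can show.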

Other observations

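Around the members, H3K4me3 peaks of neighbouring genes were present in both cultures. Within 20000 bp of Gdf3, Apobec1 had a peak of 2245 bp in LIF-ESCs and, in Myc-ESCs, 2193 bp, and a peak of 1200 bp with a score of 53.8 was listed in LIF-ESCs only. Upstream of Tdgf1, the peak at Lrrc2 was 5269 bp long in LIF-ESCs and, in Myc-ESCs, 4901 bp, and 2 more peaks further upstream were 4281 and 2661 bp in LIF-ESCs and 3428 and 2643 bp in Myc-ESCs. All 3 had the lower score in Myc-ESCs (2722 and 544 at Lrrc2, 766 and 273, 623 and 214 at the others), and scores of different lists also depend on depth.

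Foxh1 core matches inside H3K4me3 peaks of both cultures numbered 5 of 8 at Gdf3, 5 of 7 at Tdgf1, 4 of 7 at Nodal, 4 of 6 at Foxh1, 3 of 4 at Lefty2, 2 of 7 at Lefty1 and 0 of 7 at Cer1, in 10001 bp around each start site. Cer1 had no H3K4me3 peak in its region, so its count of 0 was fixed in advance. These counts depend on how much of each region the peaks cover, were given no background, and do not rank the genes. The Myc E-box CACGTG was matched 1 time at Nodal and at Tdgf1, 2 times at Lefty2 and at Foxh1, 3 times at Gdf3 and at Lefty1 and 5 times at Cer1, and 69.7% of all such regions held it.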
